A study of Mus musculus with 6 samples.

Results

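The genes described here are 34 complement and blood clotting factors, 18 of complement and 16 of clotting and fibrinolysis, out of 23224 genes in the table. They were taken by symbol, with the serpins and C1q left out. All 34 were found and all 34 were among the 13058 genes tested, so a filter on low counts removed none of them. RNA came from whole liver of untreated mice aged 35 weeks, 3 mice that lack the M2 form of pyruvate kinase from the germline onward (PKM2 KO) and 3 wild-type mice (WT), each mouse giving 1 library of polyadenylated RNA. Both groups were on a mixed C57BL/6J x 129SvJ background. The sex, litter and batch of the mice, and whether these livers carried tumours, are not given in the sources used here.

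Complement is a cascade of plasma proteases that marks surfaces with fragments of C3 and can end in the membrane attack complex, a pore of C5 to C9. Clotting is a second cascade, in which thrombin cuts fibrinogen into the fibrin mesh that plasmin later dissolves. Hepatocytes make most of these proteins, and many of them, fibrinogen first among them, are known as acute phase proteins, whose synthesis rises with the cytokine interleukin-6 during inflammation.

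Library totals ran from 27727048 to 36125711 expected counts, and levels are given as counts per 1000000 (CPM), not divided by gene length, so that they are compared between livers and not between genes. Values per liver stand in the order of livers 1, 2 and 3 of each genotype. Transcripts of Alb, serum albumin, were at 45663 to 82601 CPM, with the lowest value in WT 2. The targeted gene, listed under its older symbol Pkm2, was at 9.65, 6.31 and 6.9 CPM (PKM2 KO) and 15.9, 26.6 and 20.6 CPM (WT). The genotypes did not overlap, with the knockout lower (adjusted p = 0.314 in edgeR and 4.90e-06 in DESeq2), and the count sums both splice forms. The livers WT 1 and WT 2 held pancreatic enzyme transcripts: the 17 acinar markers summed to 3466 CPM in WT 1, 10021 CPM in WT 2 and 34.6 CPM in WT 3, and to 35.4 to 64.8 CPM in PKM2 KO. All livers had Y-linked transcripts (Ddx3y at 55.2 to 77.2 CPM), and Xist had at most 5 expected counts.

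The comparison asks whether hepatic expression of these factors differs when PKM2 is absent. No complement gene and no clotting gene passed the threshold, an adjusted p under 0.05 over all genes in edgeR's quasi-likelihood test, which 0.023% of all tested genes passed. DESeq2 (0.743% of all genes) and limma voom (0.0383%) called none of the 34 either. In edgeR an unadjusted p under 0.05 was reached by 1 of the 34, the complement regulator gene Cfp, against 7.24% of all genes. In DESeq2 it was reached by Fga, Fgb, Cfp and Fgg (unadjusted p = 0.0116, 0.0162, 0.0204 and 0.0276), where 943 of all 13058 genes reached it. Their adjusted p in DESeq2 was 0.36, 0.427, 0.481 and 0.552. Fold changes (PKM2 KO over WT, log2) were positive for 7 and negative for 11 complement genes, with a median of -0.05, and positive for 10 and negative for 6 clotting genes, with a median of 0.08. The median over all tested genes was -0.01. The 2 genotypes did not overlap for 5 of the 34 genes, where 12.1% of all genes do not. The knockout was above WT for 4 of the 34, against 5.8% of all genes, and below for 1 of the 34, against 6.27%.

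For most complement genes the WT livers differed among themselves more than the PKM2 KO livers did. For 16 of 18 complement genes the SD of log2 CPM was larger in WT, with a median of 0.323 against 0.174 in PKM2 KO. Over all tested genes the WT SD was the larger for 70.3%, with medians of 0.227 and 0.144. For the clotting genes the median SD was 0.157 in WT and 0.136 in PKM2 KO, with 9 of 16 larger in WT. All 3 PKM2 KO livers lay inside the WT range for 12 of 18 complement genes and 3 of 16 clotting genes, against 33% of all genes. WT 1 was the lowest of the 6 livers for 11 of 18 complement genes and 6 of 16 clotting genes, against 19% of all genes, and WT 2 was the highest for 8 and 4 of them, against 23%.

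**Figure D1:**
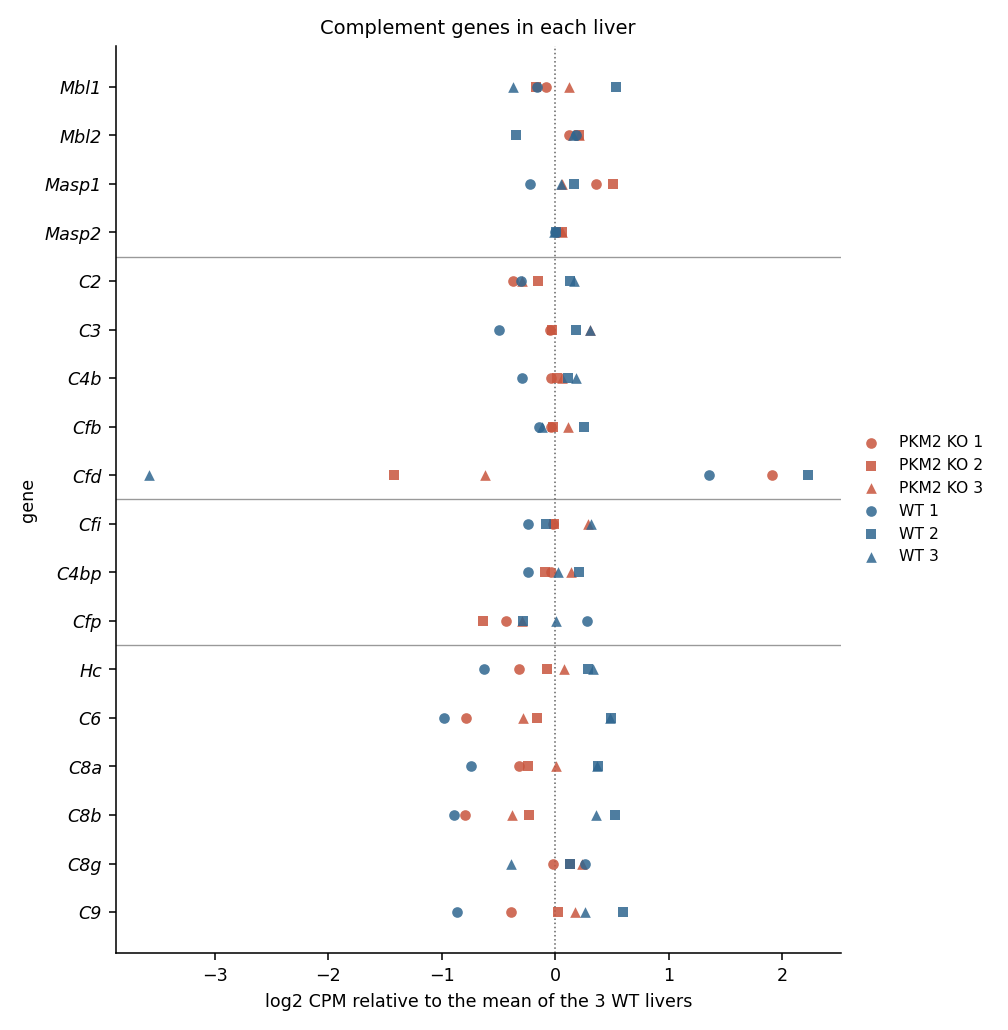
Level of each of the 18 complement genes in each liver, as log2 CPM relative to the mean of the 3 WT livers (x axis, prior count of 2), with genes in rows grouped by role. Red symbols are PKM2 KO and blue symbols WT livers, and WT 1 (blue circles) was the lowest liver for 11 of the 18 genes.

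The 3 chains of fibrinogen carried the widest variation among the clotting genes. Each is made from its own gene, and in mouse the genes Fgg, Fga and Fgb lie side by side on chromosome 3, with no other protein-coding gene between them in the RefSeq annotation. The 250 bases before the start of each gene are shown because the 3 genes varied together from liver to liver. Capitals mark the core of the interleukin-6 response element (CTGGGA) and a site for C/EBP factors (TTGCNNAA), each searched on both strands. The sequences are from RefSeq on build GRCm38.p6, which is not the build of the counts, and are written on the strand of the gene.
Fga, chr3:83025903-83026152, plus strand: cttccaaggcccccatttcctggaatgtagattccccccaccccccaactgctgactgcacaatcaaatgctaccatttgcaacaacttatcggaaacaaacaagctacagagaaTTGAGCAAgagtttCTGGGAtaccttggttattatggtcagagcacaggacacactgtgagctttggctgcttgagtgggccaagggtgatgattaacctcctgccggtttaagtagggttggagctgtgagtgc
Fgb, chr3:83049864-83050113, minus strand: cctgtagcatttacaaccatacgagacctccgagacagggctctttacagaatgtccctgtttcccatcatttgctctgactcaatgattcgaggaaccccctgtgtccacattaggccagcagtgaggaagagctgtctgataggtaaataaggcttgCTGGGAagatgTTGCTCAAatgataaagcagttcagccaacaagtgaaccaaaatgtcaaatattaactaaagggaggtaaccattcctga
Fgg, chr3:83007474-83007723, plus strand: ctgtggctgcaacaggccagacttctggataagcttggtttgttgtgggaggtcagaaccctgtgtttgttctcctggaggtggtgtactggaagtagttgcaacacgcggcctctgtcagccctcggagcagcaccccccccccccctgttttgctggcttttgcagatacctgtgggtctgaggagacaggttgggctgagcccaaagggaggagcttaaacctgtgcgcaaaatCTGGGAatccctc

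CTGGGA stood on the gene's own strand in all 3 fibrinogen windows, starting 121 bases before the start of Fga, 91 before Fgb and 13 before Fgg. TTGCNNAA was found 135 bases before Fga and 80 before Fgb. The matches of the 2 motifs did not overlap in these windows. Of 32851 promoter windows of the same length, 27% held CTGGGA and 9.56% held TTGCNNAA. Promoters were at hand for 26 of the 34 genes, 13 of each pathway, and CTGGGA was in 5 of the complement and 7 of the clotting genes, TTGCNNAA in 2 and 5. A match describes the letters and does not show that a factor binds.

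Fga, the alpha chain, was at 3042, 3750 and 4082 CPM (PKM2 KO) and 3002, 10338 and 6640 CPM (WT). Fgb, the beta chain, was at 2493, 3076 and 3916 CPM (PKM2 KO) and 2665, 8497 and 5660 CPM (WT). Fgg, the gamma chain, was at 1903, 2440 and 2781 CPM (PKM2 KO) and 1910, 6056 and 3972 CPM (WT). For each chain WT 2 was the highest liver and WT 3 the next, while WT 1 lay near the lowest PKM2 KO liver, so that the genotypes overlapped. The ratio of WT 2 to WT 1 was 3.44 for Fga, 3.19 for Fgb and 3.17 for Fgg.

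Between genotypes Fga was at a mean of 3625 ± 531 CPM in the knockout against 6660 ± 3668 CPM in WT (SD, n = 3 each), a log2 fold change of -0.88 (SE 0.418, adjusted p = 0.724). Fgb and Fgg had log2 fold changes of -0.83 (SE 0.41, adjusted p = 0.732) and -0.74 (SE 0.398, adjusted p = 0.753). These are the lowest fold changes of the 16 clotting genes, and none passed the threshold. Leaving out 1 liver at a time moved Fga between -1.22 (without WT 1, adjusted p = 0.094) and -0.41 (without WT 2), with Fgb between -1.16 and -0.40 and Fgg between -1.07 and -0.31 without the same livers. Set against WT 3 alone, the WT liver low in pancreatic transcripts, the values were -0.87, -0.84 and -0.74 for Fga, Fgb and Fgg, with no test.

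The chains kept nearly the same proportion to each other in every liver. The ratio of Fga to Fgb counts ran from 1.04 in PKM2 KO 3 to 1.22 in PKM2 KO 1, and that of Fgb to Fgg from 1.26 in PKM2 KO 2 to 1.43 in WT 3. These are ratios of counts, not of molecules. By contrast the ratio of Fga to F2, the prothrombin gene, ran from 1.76 in WT 1 to 6.33 in WT 2.

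WT 2 was the highest liver for 18 of 22 listed acute phase genes, against 23% of all genes. WT 2 and WT 3 were both above the other 4 livers for 12 of the 22, against 14.3% of all genes. Saa1, a serum amyloid gene, was at 36.4, 27.5 and 54.2 CPM (PKM2 KO) and 25.7, 2323 and 356 CPM (WT). Hemopexin (Hpx), which binds free heme, was at 3135, 2940 and 3985 CPM (PKM2 KO) and 2665, 7278 and 5291 CPM (WT). Haptoglobin (Hp), which binds free haemoglobin, was at 2856, 2958 and 3998 CPM (PKM2 KO) and 2715, 7086 and 4171 CPM (WT). The other genes of the list did not all share this order. WT 3 was the lowest liver for Orm3, an orosomucoid gene, at 6.69, 8.15 and 10.2 CPM (PKM2 KO) and 6.36, 13.4 and 0.487 CPM (WT), and for Apcs, serum amyloid P, at 105, 189.5 and 179 CPM (PKM2 KO) and 182, 261 and 60.1 CPM (WT). WT 2 was the lowest for Hamp2, a hepcidin gene, at 171, 192 and 177 CPM (PKM2 KO) and 157, 109 and 227 CPM (WT). Over the list of 22 acute phase genes the summed level was 11451 to 15633 CPM in PKM2 KO and 10545, 30579 and 17827 CPM in WT livers 1 to 3, with 20 negative fold changes and no gene at 0 in all livers. Of the 22, 8 had an unadjusted p under 0.05, against 7.24% of all genes, and 0 passed after adjustment in edgeR. In DESeq2 3 passed, against 0.743% of all genes. These were Il1rn and the metallothionein genes Mt1 and Mt2 (adjusted p = 0.00607, 0.00607 and 0.00914 in DESeq2). Saa1, Hpx and Hp did not pass in DESeq2 (adjusted p = 0.112, 0.701 and 0.86). WT 2 was the highest liver for both Saa1 and the fibrinogen chains, by 6.53 times over WT 3 for Saa1 and 1.56 times for Fga. Whether these livers differed in an acute phase state, and its part in the fibrinogen values, was not tested.

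**Figure D2:**
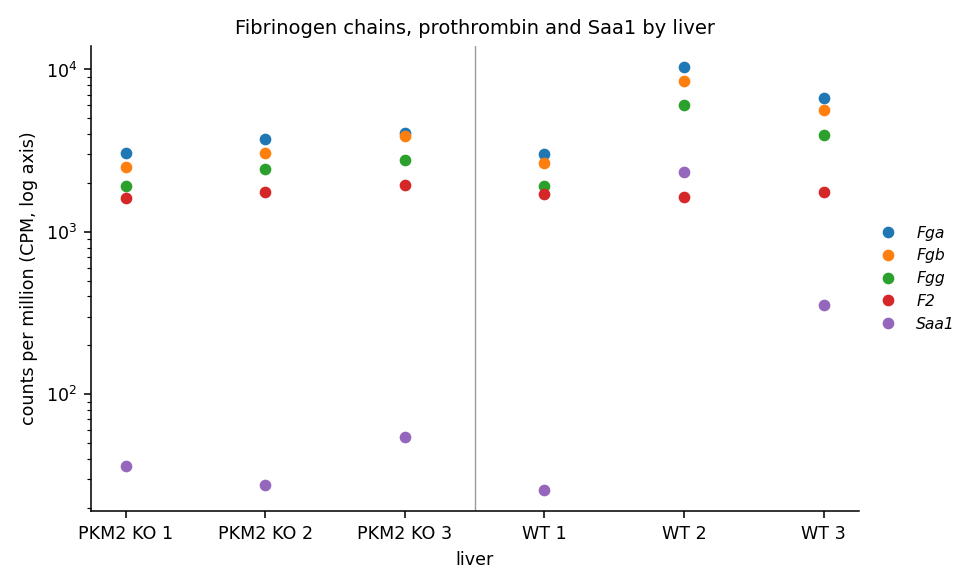
CPM (y axis, log scale) of the fibrinogen chain genes Fga, Fgb and Fgg, prothrombin (F2) and the acute phase gene Saa1 in each liver (x axis), 1 point per gene and liver. The chains move in parallel and peak in WT 2, F2 stays between 1625 and 1944 CPM, and Saa1 spans 25.7 to 2323 CPM.

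The other 13 clotting genes varied little. Their highest liver was 1.19 to 1.54 times their lowest, against 3.18 to 3.44 times for the fibrinogen chains, and their log2 fold changes ran from -0.09 to 0.27, 10 of them positive. F13b, the carrier subunit of the fibrin-crosslinking factor XIII, was at 181, 203 and 183 CPM (PKM2 KO) and 173, 173 and 144 CPM (WT). All PKM2 KO livers lay above all WT livers for F13b (log2 fold change 0.21, SE 0.126, adjusted p = 0.778).

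The contact system starts clotting on charged surfaces and releases bradykinin from kininogen. Klkb1, which encodes prekallikrein, was at 168, 193 and 161 CPM (PKM2 KO) and 143, 132 and 159 CPM (WT). PKM2 KO livers lay above WT livers without overlap (log2 fold change 0.27, SE 0.129, adjusted p = 0.732). Its neighbour F11, which encodes factor XI, was at 64.8 to 99.3 CPM and overlapped between genotypes (log2 fold change 0.20, adjusted p = 0.841). F12, the gene of the factor that starts this route, was at 356 to 459 CPM over the 6 livers (log2 fold change 0.16), and Kng1, kininogen, at 1745 to 2151 CPM (log2 fold change -0.07). Kng1 has a close copy, Kng2, with which reads can be shared.

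F7, the protease that starts clotting together with tissue factor, was at 89, 101 and 100.2 CPM (PKM2 KO) and 86, 82.9 and 84.8 CPM (WT). The genotypes did not overlap, and the difference was small (log2 fold change 0.19, SE 0.103, adjusted p = 0.755). F10, its neighbour on the chromosome and its substrate, was at 357 to 442 CPM and overlapped (log2 fold change 0.02, adjusted p = 0.982). F2, whose product thrombin cuts fibrinogen, was at a mean of 1780 ± 159.7 CPM in the knockout against 1698 ± 59.3 CPM in WT (SD, n = 3 each), and it differed by 1.07 times within WT, where Fga differed by 3.44 times. F5, the cofactor of factor X, was at 545 to 748 CPM, with a log2 fold change of 0.23 (SE 0.165). F9, the factor missing in haemophilia B, was at 187 to 223 CPM, with -0.07 (SE 0.118).

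Among anticoagulant and fibrinolytic genes, Proc, which encodes protein C, was at a mean of 439 ± 50.3 CPM in the knockout against 403 ± 15.5 CPM in WT (SD, n = 3 each). Pros1, its cofactor protein S, was at a mean of 58.3 ± 5.45 CPM in the knockout against 62.1 ± 13.3 CPM in WT (SD, n = 3 each) and shared with several complement genes the order of WT livers, with WT 1 lowest and WT 3 highest. Plg, which encodes plasminogen, was at a mean of 2430 ± 218 CPM in the knockout against 2292 ± 270.1 CPM in WT (SD, n = 3 each). Their log2 fold changes were 0.13, -0.09 and 0.08, with adjusted p values of 0.902, 0.946 and 0.953.

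**Figure D3:**
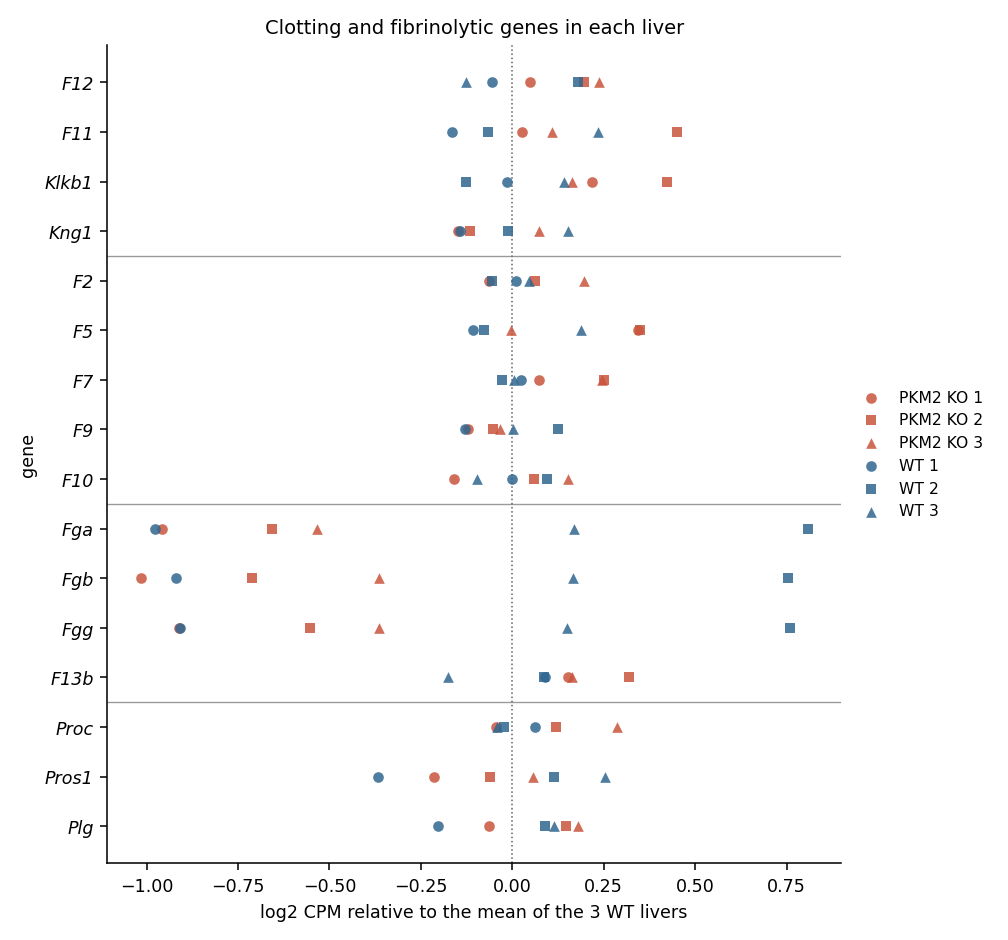
Level of each of the 16 clotting and fibrinolytic genes in each liver, as log2 CPM relative to the mean of the 3 WT livers (x axis, prior count of 2), with genes in rows grouped by role. Red symbols are PKM2 KO and blue symbols WT livers. The fibrinogen genes Fga, Fgb and Fgg spread widest, with WT 2 (blue squares) to the right.

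Within complement, 5 of the 6 genes of C5 and the membrane attack complex had the widest range over the 6 livers after Cfd, 1.95 to 2.78 times from lowest to highest. The other gene of the group, C8g, ranged over 1.58 times, less than Cfp (1.9), Mbl1 (1.88), C3 (1.74) and Masp1 (1.66). C6, which extends the complex begun by C5, was at 147, 226 and 208 CPM (PKM2 KO) and 128, 356 and 354 CPM (WT). C8b, the beta chain of C8, was at 181, 267 and 241 CPM (PKM2 KO) and 169, 453 and 404 CPM (WT). C9, which forms the ring of the pore, was at 368, 493 and 547 CPM (PKM2 KO) and 266, 732 and 581 CPM (WT). In each case WT 2 and WT 3 were the highest livers, WT 1 was the lowest, and the 3 PKM2 KO livers lay between them.

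C8a, the alpha chain of C8, and Hc, which encodes C5, had the same arrangement. C8a was at 529, 558 and 665 CPM (PKM2 KO) and 394, 858 and 850.2 CPM (WT), and Hc was at 709.9, 840.1 and 935 CPM (PKM2 KO) and 571, 1082 and 1116 CPM (WT). For all 5 of these genes WT 2 and WT 3 lay above the other 4 livers, which 14.3% of all tested genes do, and PKM2 KO 1 was the lowest of the PKM2 KO livers. The ratio of WT 2 to WT 1 was 1.89 to 2.78 and that of WT 2 to WT 3 was 0.97 to 1.26, while for the fibrinogen chains WT 2 exceeded WT 3 by 1.5 to 1.56 times.

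No difference between genotypes passed for these genes. C8b was at a mean of 229.7 ± 43.9 CPM in the knockout against 342 ± 152 CPM in WT (SD, n = 3 each), a log2 fold change of -0.57 (SE 0.352, adjusted p = 0.782), and C6 had one of -0.53 (SE 0.378, adjusted p = 0.811). C8a, Hc and C9 had log2 fold changes of -0.26, -0.16 and -0.17, with adjusted p values of 0.905, 0.944 and 0.956. Without WT 1 the log2 fold change was -0.89 for C8b (adjusted p = 0.0955) and -0.87 for C6 (adjusted p = 0.117). Without WT 2 it was -0.32 for both, and for C9 it turned to 0.15. Set against WT 3 alone it was -0.81 for C8b and -0.87 for C6, with no test.

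C8g, the lipocalin-like gamma chain of C8, did not share this arrangement. It was at 311, 346 and 373 CPM (PKM2 KO) and 379, 345 and 241 CPM (WT), with WT 1 the highest and WT 3 the lowest liver, and its log2 fold change was 0.09 (SE 0.19, adjusted p = 0.95). The ratio of C8a to C8b counts stayed between 1.89 and 2.92 in the 6 livers, whereas that of C8b to C8g ran from 0.444 in WT 1 to 1.68 in WT 3. C8a and C8b are neighbours with no protein-coding gene between them, and C8g lies on another chromosome. Ratios of this kind were computed for 12 pairs chosen after their values were seen, and no difference between genotypes could pass, since 0.1 is the smallest p that 3 against 3 livers allow (exact permutation test, two-sided, p of 0.1 to 1, adjusted p of 0.6 to 1).

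**Figure D4:**
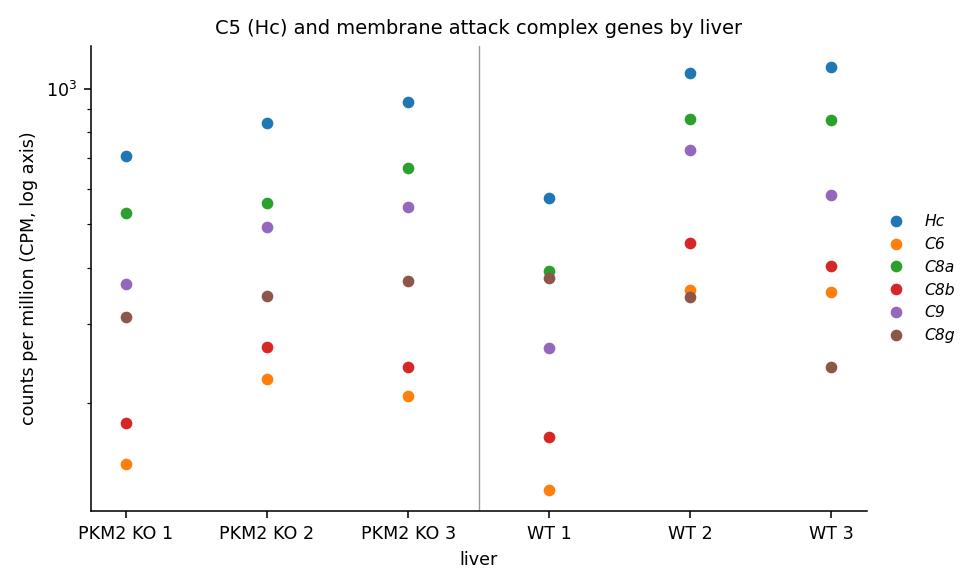
CPM (y axis, log scale) of Hc (C5), C6, C8a, C8b, C9 and C8g in each liver (x axis), 1 point per gene and liver. Hc, C6, C8a, C8b and C9 are lowest in WT 1 and highest in WT 2 and WT 3, and C8g is lowest in WT 3 at 241 CPM.

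C3, C4b and Cfb, genes of the convertases and their substrates, had nearly the same mean level in both genotypes. C3, on which all complement routes converge, was at 8174, 8274 and 10456 CPM (PKM2 KO) and 5995, 9583 and 10451 CPM (WT). WT 1 was the lowest liver, and C3 had a mean of 8968 ± 1290 CPM in the knockout against 8676 ± 2362 CPM in WT (SD, n = 3 each), with a log2 fold change of 0.05 (SE 0.27, adjusted p = 0.982). C4b, one of the genes of C4, was at a mean of 1568 ± 53.3 CPM in the knockout against 1570 ± 263 CPM in WT (SD, n = 3 each), and Cfb, the protease subunit of the alternative convertase, at a mean of 1080 ± 63 CPM in the knockout against 1072 ± 169 CPM in WT (SD, n = 3 each). The log2 fold changes of C4b and Cfb were -0.00163 and 0.01 with SE 0.178 and 0.167.

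C2, the protease subunit of the classical and lectin convertase, was at 87.5, 102 and 92.3 CPM (PKM2 KO) and 91.8, 124 and 127 CPM (WT). WT 2 and WT 3 were above the other livers, and WT 1 lay among the PKM2 KO livers (log2 fold change -0.28, SE 0.151, adjusted p = 0.753). C2 and Cfb are neighbours on chromosome 17, yet Cfb was highest in WT 2 alone, with WT 3 at 983 CPM close to WT 1 at 966 CPM. Without WT 1 the log2 fold change of C2 was -0.41 (adjusted p = 0.158), in the run where 2166 of 13350 genes had an unadjusted p under 0.05.

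Cfd encodes factor D, the protease that cuts factor B, and is also known as adipsin, a product of fat cells. It was nearly silent. Expected counts were 80, 7 and 14 (PKM2 KO) and 52, 111 and 0 (WT), or 2.76, 0.218 and 0.426 CPM (PKM2 KO) and 1.86, 3.46 and 0 CPM (WT). A count of 0 allows up to 3 counts, counting error only. Adipoq, the adiponectin gene of fat cells, was at 1.41, 0.187 and 0.182 CPM (PKM2 KO) and 0.858, 1.68 and 0 CPM (WT). For both genes WT 2 and PKM2 KO 1 were the highest livers and WT 3 was at 0, and Plin1, a lipid droplet coat protein of fat cells, was at 0.689, 0.0622 and 0.122 CPM (PKM2 KO) and 0.393, 0.747 and 0.0541 CPM (WT). Adipoq and Plin1 were picked after their values were seen. The fat cell markers Lep and Retn were not among the tested genes. Expected counts of Lep were 43, 1 and 9 (PKM2 KO) and 5, 17 and 1 (WT). Those of Retn were 9, 1 and 3 (PKM2 KO) and 6, 19 and 0 (WT). For Lep and Retn, too, PKM2 KO 1 and WT 2 were the highest livers. The other tested fat cell markers were arranged differently. Fabp4, a fatty acid binding protein, was at 7.69, 5.19 and 5.9 CPM (PKM2 KO) and 10.9, 12.6 and 11 CPM (WT), and Lpl, lipoprotein lipase, at 15, 11.6 and 7.78 CPM (PKM2 KO) and 8.04, 20.3 and 20.01 CPM (WT), with WT 3 above every PKM2 KO liver for both. Cidec, a lipid droplet protein, was at 5.03, 0.995 and 2.43 CPM (PKM2 KO) and 18.7, 4.8 and 1.33 CPM (WT), and Pparg, a regulator of fat cell formation, at 9.17, 5.72 and 13.5 CPM (PKM2 KO) and 13.9, 9.31 and 4.28 CPM (WT), both highest in WT 1. Car3 was at 4884, 4141 and 2957 CPM (PKM2 KO) and 3768, 2614 and 1173 CPM (WT), highest in PKM2 KO 1. The log2 fold change of Cfd was -0.65 (SE 1.29, adjusted p = 0.949), and it ran from -2.43 without PKM2 KO 1 to 0.32 without WT 2. Over the 9 fat cell markers, 2 of 7 tested had positive fold changes, and their sum, mostly Car3, which liver also expresses, was 2987 to 4925 CPM in PKM2 KO and 1209 to 3821 CPM in WT. The part of fat cells in the Cfd values was not tested.

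Among the regulators, Cfp had the smallest p of the 34 genes in edgeR, while in DESeq2 Fga and Fgb had smaller ones. It encodes properdin, which stabilises the alternative convertase and is made mainly by leukocytes. It was at 16, 13.9 and 17.7 CPM (PKM2 KO) and 26.3, 17.7 and 21.7 CPM (WT). All PKM2 KO livers lay below all WT livers, which 6.27% of all genes do, although PKM2 KO 3 and WT 2 were both at 17.7 CPM when rounded. Cfp had a mean of 15.8 ± 1.9 CPM in the knockout against 21.9 ± 4.3 CPM in WT (SD, n = 3 each). Its log2 fold change was -0.47 (SE 0.166, adjusted p = 0.641 by edgeR's quasi-likelihood test), and ran from -0.60 without WT 2 to -0.31 without WT 1.

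The summed macrophage markers lay lower in the same livers, though single markers differed in how far. The 12 markers of macrophages and Kupffer cells in the table summed to 421 to 471 CPM in PKM2 KO and 550 to 585 CPM in WT, all 12 with negative fold changes, and none was at 0 in all livers. Of the 12, 6 had an unadjusted p under 0.05, against 7.24% of all genes, and 0 passed after adjustment in edgeR. In DESeq2 1 passed, against 0.743% of all genes. It was C1qa, a gene of complement C1q (adjusted p = 0.00655 in DESeq2). C1qa was at 29, 24.3 and 30 CPM (PKM2 KO) and 41, 42.5 and 42.1 CPM (WT). Cd5l, a secreted Kupffer cell protein, was at 77.8, 73.6 and 81.7 CPM (PKM2 KO) and 84.3, 83.2 and 73.1 CPM (WT). Mpeg1, a pore-forming protein of macrophages, was at 80.2, 82 and 64.6 CPM (PKM2 KO) and 63.1, 124 and 139.7 CPM (WT). Both overlapped between genotypes, and WT 1 was the lowest liver for Mpeg1. Emr1, the F4/80 antigen of macrophages, was at 16.4, 14 and 15 CPM (PKM2 KO) and 23, 16.3 and 21.7 CPM (WT), with WT 1 the highest liver as for Cfp. The 9 neutrophil markers summed to 3.73 to 4.38 CPM in PKM2 KO and 5.01 to 15.4 CPM in WT, with 5 of 5 tested at negative fold changes. In whole liver, fewer cells of a type and less RNA per cell cannot be told apart, and the part of leukocytes in the Cfp values was not tested.

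Cfi, the protease that inactivates C3b and C4b, and C4bp, its cofactor for C4b, did not differ by more than the spread between livers. Cfi was at a mean of 606 ± 75.7 CPM in the knockout against 576 ± 118 CPM in WT (SD, n = 3 each), and C4bp was at a mean of 521 ± 43.9 CPM in the knockout against 523 ± 80.5 CPM in WT (SD, n = 3 each). Both were lowest in WT 1, and their log2 fold changes were 0.07 and -0.01 (SE 0.188 and 0.161).

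The lectin pathway begins when mannose-binding lectins recognise sugars on microbes and activate the MASP proteases. The lectin genes Mbl1 and Mbl2 diverged in WT 2. Mbl1 was at 152, 143 and 174 CPM (PKM2 KO) and 144, 232 and 124 CPM (WT), and Mbl2 at 306, 324 and 325 CPM (PKM2 KO) and 319, 221 and 313 CPM (WT). WT 2 was the highest liver for Mbl1 and the lowest for Mbl2, so that the ratio of their counts was 1.05 in WT 2 and 0.395 to 0.536 in the other livers. Log2 fold changes were -0.09 for Mbl1 (SE 0.236) and 0.16 for Mbl2 (SE 0.167).

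Masp1 was at 88.6, 98.2 and 71.8 CPM (PKM2 KO) and 59.1, 77.3 and 71.5 CPM (WT). Its log2 fold change was the highest of the complement genes, at 0.31 (SE 0.158, adjusted p = 0.735), and PKM2 KO 3 lay inside the WT range. Masp2, the protease that cuts C4 and C2, was the most even of the 34 genes, at 208 to 219 CPM in all 6 livers. Its PKM2 KO livers lay above the WT livers by a log2 fold change of 0.05 (SE 0.105, adjusted p = 0.957).

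**Figure D5:**
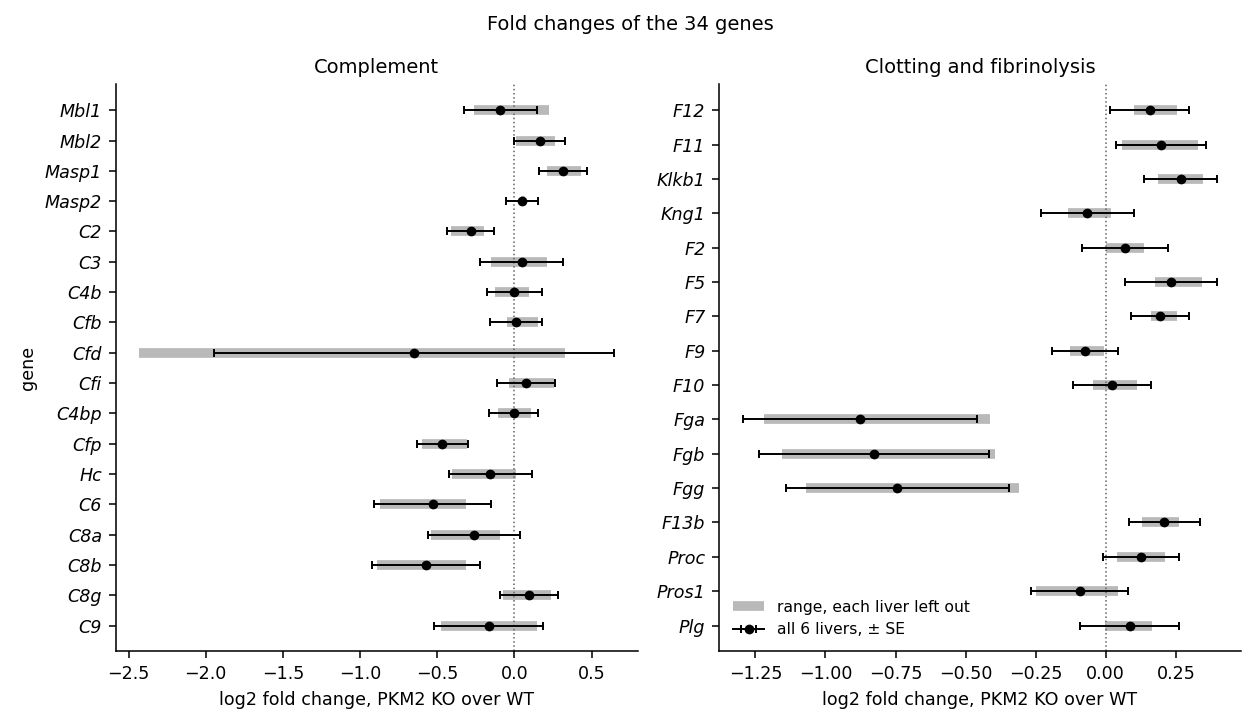
Log2 fold change (PKM2 KO over WT, x axis) of the 18 complement and 16 clotting genes with all 6 livers (black points, bars show the SE) and its range when each liver is left out in turn (grey bars). The x axes differ between panels. Grey bars stay below 0 for C2, Cfp, C6, C8a, C8b, F9 and the fibrinogen chains. They stay above 0 for Mbl2, Masp1, Masp2, F2, F5, F7, F11, F12, F13b, Klkb1 and Proc. The bars of the other genes cross 0, those of Cfd, C9, C3 and Mbl1 among them. No gene passed the threshold.

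The other listed genes of the 2 pathways, with C1q and the serpins left out, gave no call in edgeR, DESeq2 or limma voom. The C1q gene C1qa, counted above among the macrophage markers, passed in DESeq2 (adjusted p = 0.00655) and not in edgeR (adjusted p = 0.466). Of 24 tested further complement genes, receptors and surface regulators among them, none passed over all genes, and 9 had positive and 15 negative fold changes. At an unadjusted p under 0.05, 1 was higher and 5 were lower. Over all 13058 tested genes 375 were higher and 571 lower at that p, together 7.24%, and 47.6% of fold changes were positive. C4a, a close paralog of C4b that is known in mouse as the sex-limited protein, was at 20.6, 17.4 and 37.5 CPM (PKM2 KO) and 35.3, 104 and 96.3 CPM (WT). WT 2 and WT 3 were again the highest livers, with WT 1 inside the PKM2 KO range, and the log2 fold change was -1.64 (SE 0.446, adjusted p = 0.566). Reads can be divided between C4a and C4b, whose count ratio ran from 16.1 in WT 2 to 90.3 in PKM2 KO 2.

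Itgam, a chain of the leukocyte receptor for C3 fragments, was at 1.55, 0.964 and 1 CPM (PKM2 KO) and 1.75, 5.11 and 3.11 CPM (WT) (log2 fold change -1.51, adjusted p = 0.566), without overlap. Itgam is a leukocyte gene, and the part of leukocytes in its values was not tested. Colec10, a collectin of the lectin pathway, was at 37.5, 40.6 and 36.3 CPM (PKM2 KO) and 25.3, 26 and 33.4 CPM (WT). Its PKM2 KO livers were above all WT livers (log2 fold change 0.43, SE 0.133, adjusted p = 0.581).

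Of 26 further clotting genes tested, 11 had positive and 15 negative fold changes, and none passed the threshold. At an unadjusted p under 0.05, 1 was higher and 1 lower, where 7.24% of all tested genes reached that p. Ggcx, the carboxylase that matures the vitamin K-dependent factors, was at 64.8, 67.6 and 59.3 CPM (PKM2 KO) and 49.5, 56.5 and 53.3 CPM (WT), with all PKM2 KO livers above all WT livers (log2 fold change 0.27, adjusted p = 0.668). Mcfd2, which helps factors V and VIII leave the endoplasmic reticulum, was at 206, 193 and 193 CPM (PKM2 KO) and 223, 256 and 230.2 CPM (WT). Fgl2, a prothrombinase of macrophages and endothelium, was at 3.24, 2.18 and 1.92 CPM (PKM2 KO) and 3.58, 4.45 and 3.38 CPM (WT). Both were lower in PKM2 KO without overlap, with log2 fold changes of -0.26 (adjusted p = 0.708) and -0.64 (adjusted p = 0.658).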

How the data were processed

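Polyadenylated RNA of 6 whole livers was sequenced from TruSeq libraries, per the labels' protocols. The deposited table holds the authors' expected counts per gene. The submitters' processing notes name RSEM 1.2.12, Bowtie 1.0.1 and build mm9. Their gene annotation and strand setting are not given in the sources used here. RSEM divides reads among similar genes, so C4b and C4a, and Kng1 and Kng2, are uncertain. Expected counts were rounded and analysed in R 4.3.3 with edgeR 4.0.16 (filterByExpr, TMM, quasi-likelihood F test, genotype as the only term, Benjamini-Hochberg adjustment over all tested genes, threshold 0.05). Standard errors (SE) follow from the F statistic, as the size of the fold change on the log2 scale over its root. DESeq2 1.42.0 and limma 3.58.1 (voom) were alternatives, beside other scalings and filters and each liver left out. In counts simulated for this comparison over 12951 genes, the test called 73% of 100 genes changed by 1 log2 unit and 100% of 100 changed by 2. It also made 11 false calls. The simulation gave each gene the dispersion of the trend and held no liver that stood apart, such as WT 2. Its shares therefore cannot be carried over to these livers. Here Pkm2, at a log2 fold change of -1.47, did not pass in edgeR (adjusted p = 0.314). Values per liver were due, by a rule, for the 5 members with the smallest p and the 3 with the widest spread within a genotype in each pathway, for the 3 other pathway genes with the smallest p in each, and for the 2 most abundant genes of the marker lists, printed where a result touches them. Other members shown per liver, and Saa1, Orm3, Apcs, Hamp2, Emr1 and the fat cell markers other than Car3 and Lpl, were chosen after their values were seen. Each liver is a separate mouse. Members and lists were chosen with earlier results of these data known. Summed CPM of hepatocyte markers was 123103 to 131472 in PKM2 KO and 93732 to 133093 in WT. The sums for PKM2 KO and WT were 201 to 292 and 190 to 280 for stellate cells, 219 to 229 and 191 to 226 for endothelium, 27 to 32.1 and 32.5 to 48.5 for bile duct cells, and 2.22 to 3.1 and 2.12 to 2.93 for platelets. Motifs were searched in RefSeq promoters, and the plots were drawn with matplotlib 3.10.9.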

Additional observations from a re-analysis of the deposited data

How the results depend on the processing

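No member passed an adjusted p of 0.05 under any alternative run, which were other scalings and filters, DESeq2, limma voom, the replicate block and each liver left out. Across all tested genes 3 passed, against 5 with no filter, 97 with DESeq2, 5 with limma voom and 7 with the replicate block, and 3 to 51 with single livers left out, 51 without WT 1 and 51 without WT 3. Equal replicate numbers did not pair livers: the correlations of deviations were -0.0509, 0.0266 and -0.0915, and 1 of 3 PKM2 KO livers correlated best with its own number. Median fold changes with single livers left out were -0.17 to 0.05 for complement and 0.02 to 0.15 for clotting.

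Of 510 recomputed values, 42 changed sign, none of them called, and the cause was not tested. Set against WT 3 alone, which is low in pancreatic transcripts, values with no test were 0.34 for Mbl1, -0.22 for C3, 8.21 for Cfd, whose count there is 0, -0.22 for Cfi, -0.0224 for F11 and -0.0193 for Plg. C4b was at 0.000819 with RLE scaling, 0.0208 with library totals, 0.00228 without the 20 most abundant genes in scaling, 0.00966 with no filter, 0.000804 with DESeq2, 0.0166 with voom and 0.0122 with the replicate block. Cfd was at 0.71 with voom. C4bp was at 0.0249 with library totals, 0.00627 with no filter, 0.00538 with voom and 0.00327 with the replicate block. With single livers left out, sign changes occurred within -0.26 to 0.23 for Mbl1, -0.15 to 0.21 for C3, -0.13 to 0.0931 for C4b, -0.0515 to 0.15 for Cfb, -2.43 to 0.32 for Cfd, -0.0341 to 0.25 for Cfi, -0.11 to 0.11 for C4bp, -0.40 to 0.00746 for Hc, -0.0725 to 0.24 for C8g, -0.48 to 0.15 for C9, -0.14 to 0.0185 for Kng1, -0.0459 to 0.11 for F10, -0.25 to 0.0419 for Pros1 and -0.00354 to 0.16 for Plg. Cfd rests on at most 111 expected counts in a liver, and its count of 0 is in WT 3, whose library total of 34091561 is the second highest.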
